A study of Mus musculus with 8 samples.

Results

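Immediate early genes induced by neuronal activity were followed through 4 time points of a mouse model of paw inflammation. The set held 10 genes chosen by name, Fos, Fosb, Junb, Egr1, Egr3, Nr4a1, Arc, Dusp1, Ier2 and Btg2. All 10 were found among the 24421 genes of the count table and all 10 were among the 17328 genes tested. RNA was sequenced from dorsal root ganglia (DRG) of C57BL/6J mice, labelled WT in all 8 libraries and described as 8 weeks old in the series text, while the paper's methods give male mice and a range of ages that starts there. The 1d, 3d and 30d groups were killed 1, 3 and 30 days after 20 µl of 1% carrageenan, a seaweed polysaccharide that inflames tissue, had been given in the left hind paw. The 0d group was naive and had no injection, so no group received an injection without carrageenan. There were 2 libraries per time point, each of which pooled L3 to L5 ganglia from 2 to 3 mice. The paper's methods do not name the side of the ganglia, and the 0d mice had no injected side. Replicates were therefore pools, and single animals could not be compared. The earliest library after the injection was taken at 1d, and the hours after it were not sampled.

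Immediate early genes are transcribed within minutes of a stimulus, without new protein synthesis, by factors that already sit in the cell. In neurons, calcium entry and MAP kinase signalling act on CREB, SRF and their partners at the promoters, and the mRNAs are short-lived. Fos and Jun proteins pair into the transcription factor AP-1, Egr and Nr4a proteins bind DNA as transcription factors of their own, and other products act at synapses or shut the signal off. Fos labelling is widely used to mark activated neurons of the spinal cord, whereas DRG neurons are better known for induction of Jun and Atf3 after nerve injury.

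Library totals ran from 44123208 to 73580338 counts, and scaling factors from 0.993 to 1.01. The sample labels give DRG neurons as the cell type, but whole ganglia were dissected. All 13 sensory neuron markers were detected in every library, with summed levels of 24714 to 26419 CPM (counts scaled to a common library size by TMM). Markers of other cells were present too. The summed Schwann cell markers ranged from 5379 to 10712 CPM, red blood cell markers from 141 to 515 CPM, skeletal muscle markers from 19.9 to 134 CPM and neutrophil markers from 43.5 to 225 CPM, and no marker was at 0. In such bulk samples, fewer cells of a type and less RNA per cell cannot be told apart. The libraries of the 30d pair differed most from each other, where the chi-square statistic between replicates, divided by its degrees of freedom, was 25.4. It was 15.1 for 0d, 8.42 for 1d and 7.19 for the 3d pair.

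RefSeq promoter sequence (build GRCm38.p6) was at hand for 6 of the 10 genes, Fos, Fosb, Junb, Nr4a1, Dusp1 and Btg2. Egr1, Egr3, Arc and Ier2 are named only. The windows of 300 bases, from 250 before to 50 after the start, were searched on both strands for the cAMP response element (CRE) to which CREB binds, as the core TGACG and as the palindrome TGACGTCA, which holds the core on each strand. The core was found in 6 of 6 windows, against 20.8% of 32851 promoters, and the palindrome in Dusp1 and Btg2, against 1.79%. A serum response element was found in 0 of 6 windows, against 1.63%, which says only that the letters searched were not in these windows. Because the class is known for such elements, 4 promoters are shown as the 200 bases before the start, each 5′ to 3′ on the strand of its gene. Capitals mark the cores and palindromes, with CGTCA where the core is on the other strand. They are Fos at chr12:85473690-85473889 (plus strand), Nr4a1 at chr15:101266646-101266845 (plus strand), Dusp1 at chr17:26508473-26508672 (minus strand) and Btg2 at chr1:134079156-134079355 (minus strand).
Fos: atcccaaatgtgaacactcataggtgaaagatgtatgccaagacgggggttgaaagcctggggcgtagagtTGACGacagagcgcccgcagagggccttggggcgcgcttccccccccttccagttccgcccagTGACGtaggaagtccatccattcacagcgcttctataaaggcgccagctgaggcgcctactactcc
Nr4a1: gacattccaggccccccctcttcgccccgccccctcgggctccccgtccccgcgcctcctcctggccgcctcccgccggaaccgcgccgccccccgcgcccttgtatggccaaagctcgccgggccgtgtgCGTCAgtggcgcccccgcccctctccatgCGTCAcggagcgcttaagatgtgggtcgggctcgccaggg
Dusp1: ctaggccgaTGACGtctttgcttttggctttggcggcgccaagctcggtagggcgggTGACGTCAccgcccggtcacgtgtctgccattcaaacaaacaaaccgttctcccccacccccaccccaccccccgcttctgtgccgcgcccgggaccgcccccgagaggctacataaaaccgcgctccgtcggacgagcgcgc
Btg2: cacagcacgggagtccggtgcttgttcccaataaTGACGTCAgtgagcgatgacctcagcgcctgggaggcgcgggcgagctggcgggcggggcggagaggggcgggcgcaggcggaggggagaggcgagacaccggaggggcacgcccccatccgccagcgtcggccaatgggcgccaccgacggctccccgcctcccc
Counted from the start site, the nearer of the 2 cores of Fos began at -66. Nr4a1 carried 4 cores in the whole window, of which 2 lie in the part shown. Dusp1 and Btg2 each carried 1 palindrome, which began at -143 and at -166. A match of letters is a description and not a bound site.

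All 10 genes were expressed at low to moderate levels at 0d and after the injection. None of them passed edgeR's test with adjustment over all genes in any of the 6 comparisons between time points, and their log2 fold changes from 0d lay between -0.61 (Arc at 30d) and 0.27 (Fosb at 30d). On the RPKM scale, which divides by gene length so that genes can be compared, the means over 8 libraries formed 3 tiers. Nr4a1 (15.4 RPKM), Junb (13.2) and Dusp1 (11.3) were highest, and the libraries of neighbours in this order overlapped. Egr1 (5.23 RPKM), Ier2 (4.11), Btg2 (2.90), Fos (2.16), Egr3 (1.98) and Arc (1.62) followed, again with overlap between neighbours. Fosb, at 0.348 RPKM, was apart from Arc, and Dusp1 was apart from Egr1. The mean level of Nr4a1 was 44.3-fold that of Fosb. In RPKM, Fos ranked above 30.8% of all tested genes and Nr4a1 above 71.2%. Counting error mattered most for Fosb, with 52 to 147 counts per library, while Nr4a1 had 1468 to 2909.

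**Figure D1:**
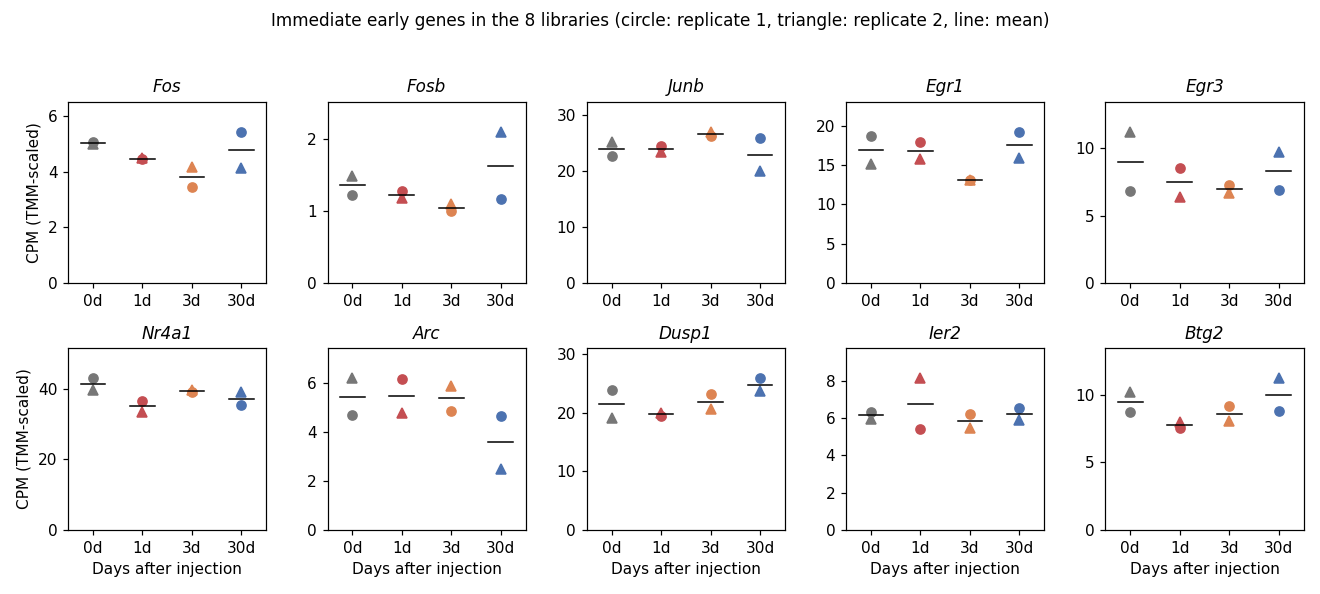
CPM of each of the 10 genes (vertical axis, from 0) at 0d, 1d, 3d and 30d. Each point is 1 library, circles are replicate 1, triangles replicate 2 and the line the mean of the pair, and the wide 30d pairs of Fosb (1.16 and 2.1 CPM) and Arc (4.65 and 2.48 CPM) can be seen.

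Fos (mm10 chromosome 12, 85473901 to 85477270, 4 exons in the count annotation) encodes a subunit of AP-1. It was at 5.05 and 5.00 CPM at 0d, 4.44 and 4.47 CPM at 1d, 3.47 and 4.16 CPM at 3d, and 5.42 and 4.13 CPM at 30d. Both 1d and both 3d libraries were below both 0d libraries, and the 30d pair spanned them. The log2 fold change from 0d was -0.17 at 1d (95% interval -0.58 to 0.24), -0.40 at 3d (-0.80 to 0.01) and -0.08 at 30d (-0.48 to 0.33), and none passed the test, with edgeR adjusted p of at least 0.843. An increase of Fos above 0.24 (log2) at 1d, or above 0.01 at 3d, lies outside these intervals.

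Fosb (chromosome 7, 19302696 to 19310045, 4 exons) encodes a related AP-1 subunit, whose truncated form is long-lived. Its levels were 1.23 and 1.48 CPM at 0d, 1.27 and 1.19 CPM at 1d, 1.00 and 1.09 CPM at 3d, and 1.16 and 2.1 CPM at 30d. The high value belonged to 30d replicate 2 alone. Its log2 fold changes from 0d were -0.14, -0.38 and 0.27 with standard errors of 0.36, 0.36 and 0.35 (adjusted p of at least 0.794), the least precise of the 10. Junb (chromosome 8, 84976909 to 84978748, a single exon) encodes a Jun-type partner in AP-1. It was at 22.7 and 25.2 CPM at 0d, 24.3 and 23.4 CPM at 1d, 26.2 and 26.9 CPM at 3d, and 25.8 and 19.9 CPM at 30d. Its 3d pair was above both 0d libraries, and 30d replicate 2 was the lowest of the 8 libraries. Its log2 fold changes from 0d were within 0.01 of 0 at 1d, 0.15 at 3d and -0.07 at 30d, each with a standard error of 0.11 (adjusted p of at least 0.832). At 3d the value of Junb was positive and those of Fos and Fosb were negative, and none of the 3 AP-1 genes passed the threshold.

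Egr1 (chromosome 18, 34861207 to 34864956, 2 exons) encodes a zinc finger transcription factor that responds to MAP kinase signalling. Its levels were 18.6 and 15.1 CPM at 0d, 17.9 and 15.7 CPM at 1d, 13.1 and 13.1 CPM at 3d, and 19.2 and 15.9 CPM at 30d. The 3d pair was the lowest of the 8 libraries and was below both libraries of every other time point. Its log2 fold change was -0.36 ± 0.12 (SE) at 3d against 0d (unadjusted p = 0.0111, edgeR adjusted p = 0.546), and 0.42 ± 0.12 at 30d against 3d (unadjusted p = 0.00416, adjusted p = 0.148). Neither passed the threshold after adjustment over 17328 genes. The first was -0.21 without 0d replicate 1 and -0.51 without 0d replicate 2, and the second was 0.28 without 30d replicate 1 and 0.55 without 30d replicate 2. Its change from 0d was within 0.01 of 0 at 1d and 0.06 at 30d. Egr3 (chromosome 14, 70077445 to 70082613, 7 exons) encodes a relative that often follows Egr1. It was at 6.79 and 11.2 CPM at 0d, 8.54 and 6.41 CPM at 1d, 7.28 and 6.70 CPM at 3d, and 6.87 and 9.68 CPM at 30d. Replicates of Egr3 differed by as much as time points, and every pair of time points overlapped. Its log2 fold changes from 0d were -0.27, -0.37 and -0.12, each with a standard error of 0.25. They were 0.14, 0.04 and 0.29 without 0d replicate 2, and -0.58, -0.68 and -0.43 without 0d replicate 1.

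Nr4a1 (chromosome 15, 101266846 to 101274794, 7 exons) encodes the orphan nuclear receptor Nur77. Its levels were 42.9 and 39.6 CPM at 0d, 36.5 and 33.5 CPM at 1d, 39.1 and 39.8 CPM at 3d, and 35.4 and 39.1 CPM at 30d. Both 1d libraries were below both 0d libraries and both 3d libraries. The log2 fold change at 1d against 0d was -0.24 ± 0.08 (SE), with an interval of -0.40 to -0.07, an unadjusted p of 0.00718 and an edgeR adjusted p of 0.595. From 1d to 3d it was 0.17 ± 0.08 (unadjusted p = 0.0374), also short of the threshold after adjustment, and 0.11 without 1d replicate 2. Of the 10 genes, Nr4a1 had the narrowest intervals.

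Arc (chromosome 15, 74669081 to 74672570, 6 exons) encodes a protein that travels to synapses and promotes the uptake of glutamate receptors from the surface. It was at 4.67 and 6.18 CPM at 0d, 6.15 and 4.79 CPM at 1d, 4.86 and 5.87 CPM at 3d, and 4.65 and 2.48 CPM at 30d. Both 30d libraries were below all others, one of them by a small margin. The log2 fold change at 30d was -0.61 ± 0.27 (SE) against 0d, -0.62 ± 0.27 against 1d and -0.60 ± 0.27 against 3d, with unadjusted p of 0.0410, 0.0396 and 0.0449 and edgeR adjusted p of 0.386, 0.400 and 0.369. Against 0d, the value was -0.23 without 30d replicate 2 and -1.13 without 30d replicate 1 (adjusted p = 0.0513). The library with the low Arc level had the lowest summed skeletal muscle markers (19.9 CPM), and 30d replicate 1 had the highest red blood cell (515 CPM) and neutrophil (225 CPM) markers and the lowest Schwann cell markers (5379 CPM). The part of these differences in the Arc result was not tested.

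Dusp1 (chromosome 17, 26505591 to 26508472, 4 exons) encodes a phosphatase that switches MAP kinases off. Its levels were 23.8 and 19.1 CPM at 0d, 19.5 and 20.0 CPM at 1d, 23.1 and 20.6 CPM at 3d, and 25.8 and 23.7 CPM at 30d. Both 30d libraries were above both 1d and both 3d libraries, and overlapped 0d by a narrow margin. Its log2 fold change was 0.33 ± 0.11 (SE) at 30d against 1d (unadjusted p = 0.00851, edgeR adjusted p = 0.260) and 0.21 ± 0.11 at 30d against 0d (adjusted p = 0.446). The latter was 0.06 without 0d replicate 2 and 0.38 without 0d replicate 1. Btg2 (chromosome 1, 134074865 to 134079155, 2 exons) encodes an antiproliferative protein that acts with the enzymes that shorten mRNA tails. It was at 8.75 and 10.2 CPM at 0d, 7.51 and 8.00 CPM at 1d, 9.15 and 8.06 CPM at 3d, and 8.76 and 11.2 CPM at 30d. Both 1d libraries were below all others. The log2 fold change was -0.29 ± 0.15 at 1d against 0d and 0.37 ± 0.15 at 30d against 1d (unadjusted p = 0.0294, adjusted p = 0.371). The first was -0.17 without 0d replicate 2, and the second was 0.18 without 30d replicate 2 and 0.53 without 30d replicate 1. Ier2 (chromosome 8, 84661331 to 84662852, a single exon) encodes a nuclear protein whose mRNA is induced by growth factors. It was at 6.33 and 5.98 CPM at 0d, 5.44 and 8.14 CPM at 1d, 6.22 and 5.47 CPM at 3d, and 6.54 and 5.90 CPM at 30d. Its lowest and highest libraries were the 2 replicates of 1d, and every pair of time points overlapped. None of these 3 genes passed the threshold in any comparison.

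**Figure D2:**
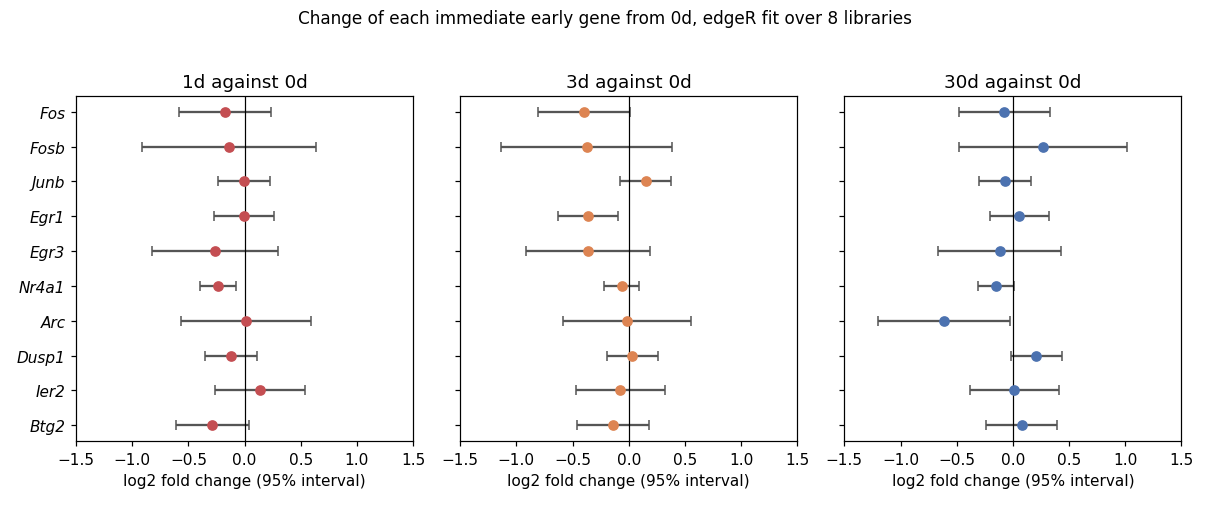
log2 fold change of each of the 10 genes at 1d, 3d and 30d against 0d (horizontal axis), as points with 95% intervals from the edgeR fit over 8 libraries. The intervals of Nr4a1 at 1d (-0.40 to -0.07), Egr1 at 3d (-0.63 to -0.10) and Arc at 30d (-1.20 to -0.03) leave out 0 before adjustment, and none passed the adjusted threshold.

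To ask whether the genes were changed after the injection, each time point was compared with 0d, and the later time points with each other, by edgeR's quasi-likelihood test with an adjusted p threshold of 0.05. At 1d against 0d, 0 of 10 genes were differentially expressed, where 0.346% of all tested genes were. At an unadjusted p under 0.05, 1 of 10 was below 0d (Nr4a1), against 4.47% of all genes. In 3 genes (Fos, Nr4a1 and Btg2) the libraries of 1d and 0d did not overlap, which was so for 31.9% of all genes, and 8 of 10 values were negative, with a median of -0.13 against a median of all genes within 0.01 of 0. DESeq2 and limma-voom also gave 0 of 10, with 1 gene each at an unadjusted p under 0.05. The widest interval, that of Fosb, reached 0.63 (log2) at 1d, and smaller increases of Fosb are inside it. Among cell type markers at 1d against 0d, all 5 of Schwann cells (median -0.26), all 5 of fibroblasts (-0.28) and all 7 of skeletal muscle (-1.26) had negative values. All 5 of red blood cells (median 0.33), all 5 of neutrophils (0.64) and 8 of 13 of sensory neurons (0.01) had positive values. Their part in the values of the 10 genes was not tested.

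At 3d against 0d, 0 of 10 genes passed, against 0.219% of all genes, and 1 of 10 had an unadjusted p under 0.05 (Egr1), against 5.94%. The libraries did not overlap in 4 genes, against 39.5% of all genes, with Fos, Fosb and Egr1 lower and Junb higher, and the median was -0.11. At 30d against 0d, 0 of 10 passed, against 0.0231%, and 1 of 10 had an unadjusted p under 0.05 (Arc), against 12.3%. The libraries did not overlap in 2 genes (Nr4a1 and Arc, both lower), against 39.6%, and the median was -0.03. DESeq2 and limma-voom each gave 0 of 10 at 3d and at 30d, with 1 gene each at an unadjusted p under 0.05. The comparisons with 0d share the 0d libraries and are not independent of each other.

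At 3d against 1d, 0 of 10 passed, against 0.289% of all genes, and 2 of 10 had an unadjusted p under 0.05, Egr1 (-0.36) and Nr4a1 (0.17), against 4.24%. The libraries did not overlap in 7 genes, 4 higher (Junb, Nr4a1, Dusp1 and Btg2) and 3 lower (Fos, Fosb and Egr1), against 37.6%. At 30d against 3d, 0 of 10 passed, against 0.935%, and 2 of 10 had an unadjusted p under 0.05, Egr1 (0.42) and Arc (-0.60), against 13%. The libraries did not overlap in 6 genes, 3 higher (Fosb, Egr1 and Dusp1) and 3 lower (Junb, Nr4a1 and Arc), against 46.4%, and the median was 0.20. At 30d against 1d, 0 of 10 passed, against 0.571%, and 3 of 10 had an unadjusted p under 0.05 (Dusp1, Btg2 and Arc), against 11.7%. There the libraries did not overlap in 3 genes, against 40%. In these 3 comparisons DESeq2 and limma-voom also gave 0 of 10, with 1 to 3 genes at an unadjusted p under 0.05. Without 30d replicate 1, Arc (-1.11, adjusted p = 0.0207) and Junb (-0.42, adjusted p = 0.0315) passed the edgeR threshold at 30d against 3d, and Arc (-1.14, adjusted p = 0.0254) at 30d against 1d, with the lone 30d library taken to vary like the other groups. Without 30d replicate 2 in its place, the values at 30d against 3d were -0.21 for Arc and -0.05 for Junb, and that of Arc at 30d against 1d was -0.24, none of them called. A test for a difference at any time point gave 0 of 10, against 1.02% of all genes, with unadjusted p of 0.0180 for Egr1 and 0.0373 for Nr4a1 and with 1 gene each for DESeq2 and limma-voom under 0.05.

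The spread between pools was wide for some of these genes and ordinary for others. The median biological coefficient of variation, the spread between replicates beyond counting error, was 11.9% for the 10 genes and 8.22% for all tested genes. Egr3 (17.3%) and Arc (18.5%) were more variable than 97% and 96% of the 500 genes nearest to each in level, while Fosb (23.0%) and Fos (13.3%) were more variable than 48% and 41.4%. The rest of the 10 lay between these, from 62.6% for Nr4a1 to 90.2% for Junb. The median difference between the pools of a pair was 0.24 (log2) for 0d, 0.11 for 1d, 0.15 for 3d and 0.36 for 30d, against 0.12, 0.11, 0.07 and 0.14 over all genes. In 6 of 10 genes the largest difference within a pair exceeded the whole range of the time point means, which was so for 64.5% of all genes. In 6 of 10 the pair that differed most was that of 30d, against 36.7% of all genes. At 0d, where no animal had been injected, Egr3 differed by 0.72 (log2) between the pools.

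**Figure D3:**
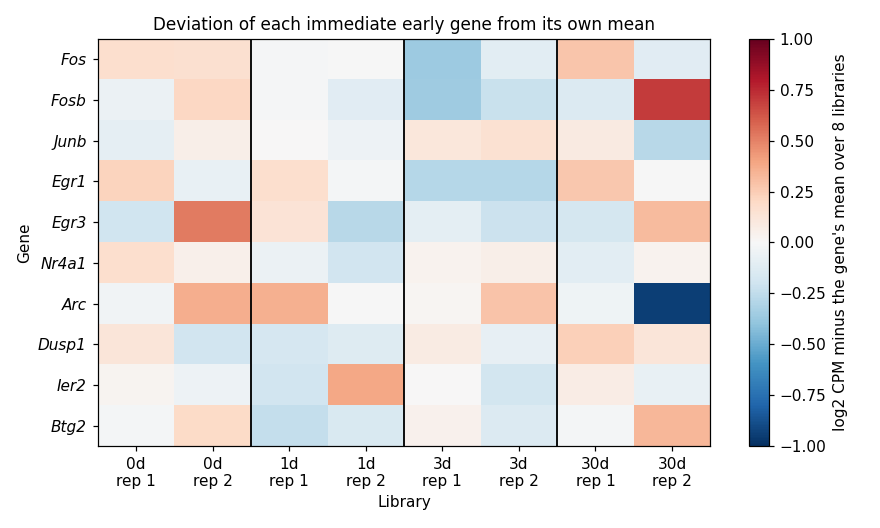
log2 CPM of each gene minus its own mean over 8 libraries (colour scale, red above and blue below), with genes as lines and libraries as columns grouped by time point. No library is red or blue throughout, and the strongest colours are single libraries, Arc and Fosb in 30d replicate 2 and Egr3 in 0d replicate 2.

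The genes did not all share 1 pattern over the libraries. Among 45 pairs of genes, Pearson r was positive in 20, with a median of -0.06. It ran from -0.82 (Fosb and Junb) to 0.81 (Junb and Arc). The number of genes above their own mean ranged from 1 of 10 in 1d replicate 2 to 7 of 10 in 0d replicate 2. The mean deviation over the 10 genes ran from -0.08 to 0.12 (log2). Set against the mean of the other 9 genes over 8 libraries, Fos had the highest Pearson r (0.57) and Arc the lowest (-0.49). These are descriptions over libraries that form 4 time points, and no test was made of them. The genes whose pattern was most like the mean of the 10, among 14635 candidates, were Fchsd1, Rims1, Ano5, Car2, Bard1, Scaper, Stk24, Cox7a1, Oxtr and Mllt1, with Pearson r of 0.95 to 0.92 over 8 libraries. Only 2 of these, Rims1 and Ano5, were among the 10 most alike by Spearman rank, and 0 when the median of the genes took the place of the mean. The likeness therefore depended on the measure.

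Other genes of the activity response, from lists by role, were read in the same fit. Of 21 other immediate early transcription factors, 0 passed in any of the 6 comparisons, in which 0.0231% to 0.935% of all genes did, and 0 to 2 per comparison had an unadjusted p under 0.05. The smallest p among them was that of Jun, which encodes the main partner of Fos, at 3d against 0d (0.18 ± 0.05 SE, unadjusted p = 0.00161, edgeR adjusted p = 0.236). Npas4, a factor specific to neuronal activity, was near the floor in every library (0.0912 to 0.628 CPM), as was Egr4 (0.0647 to 0.684 CPM). Of 25 other immediate early regulators, 1 passed in 1 comparison, 30d against 3d, where 0.935% of all genes did. This was Gadd45g, a stress-response gene, at 15.9 and 14.9 CPM at 3d and 10.2 and 10.6 CPM at 30d, lower at 30d by a log2 fold change of -0.57 (adjusted p = 0.0267). Of 28 upstream kinases and factors, only Camk2b, a calcium-dependent kinase subunit, passed, higher at 30d than at 3d (0.25, adjusted p = 0.0370), against the same 0.935% of all genes.

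Among 12 late-response genes, which are transcribed after the immediate early factors, 1 was called higher at 3d than at 0d, where 0.219% of all genes were called, and 3 were called lower at 30d than at 3d, where 0.935% were. Bdnf, a growth factor of sensory neurons, was at 32.8 and 35.5 CPM at 0d, 42.3 and 42.9 CPM at 1d, 49.4 and 54.7 CPM at 3d, and 26.5 and 21.2 CPM at 30d. Its levels did not overlap between any of the time points, where 31.9% to 46.4% of all genes did not overlap in each single comparison. Scg2, a granule protein, was lower at 30d than at 3d by a log2 fold change of -0.30 (edgeR adjusted p = 0.00368) and Syt4, a vesicle protein, by -0.23 (adjusted p = 0.0220). The median of the 12 was 0.14 at 3d against 0d and -0.25 at 30d against 3d, where the medians of the 10 immediate early genes were -0.11 and 0.20 and those of all genes were within 0.01 of 0. Cell type markers were read in the same comparisons, and some of their values follow. All 5 Schwann cell markers had negative values at 30d against 3d (median -0.31), with no overlap between the libraries, which was so for 46.4% of all genes, and 0 were called by edgeR (1 at an unadjusted p under 0.05). All 5 red blood cell markers had positive values there (median 1.09), also without overlap and with 0 called and 0 at an unadjusted p under 0.05. Of 5 satellite glia markers, 4 had negative values (median -0.21) and 1 was called, Apoe (lower, adjusted p = 0.0128). All 5 mural cell markers had negative values there (median -0.13), 3 of them without overlap, with 0 called and 2 at an unadjusted p under 0.05. All 5 neutrophil markers had positive values (median 0.23), with 0 called and all overlapping. Of 7 skeletal muscle markers, 3 had positive and 4 negative values (median -0.01) and 1 was called, Myh1 (higher, adjusted p = 0.0292). Of 13 sensory neuron markers, 11 had negative values there (median -0.05) and 1 was called, Calca, which encodes the neuropeptide CGRP (lower, adjusted p = 0.00201). At 3d against 0d, 7 of the 13 had positive and 6 negative values, with a median within 0.01 of 0, and 2 were called, both higher, Calca among them (adjusted p = 0.0237). In that comparison all 5 neutrophil markers had positive values (median 1.00) without overlap, which was so for 39.5% of all genes, and 0 were called or had an unadjusted p under 0.05. Of 8 macrophage markers, 3 had positive and 5 negative values (median -0.02) and 1 was called, Cx3cr1 (lower, adjusted p = 0.00794). All 7 skeletal muscle markers had negative values (median -0.87) and 1 was called, Myh1 (lower, adjusted p = 0.0237). Of 5 mural cell markers, 4 had positive values (median 0.10) and 4 did not overlap, with 0 called and 1 at an unadjusted p under 0.05. Of 5 satellite glia markers, 2 had positive and 3 negative values (median -0.03), with 0 called and 2 at an unadjusted p under 0.05. Their part in the late-response values was not tested.

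**Figure D4:**
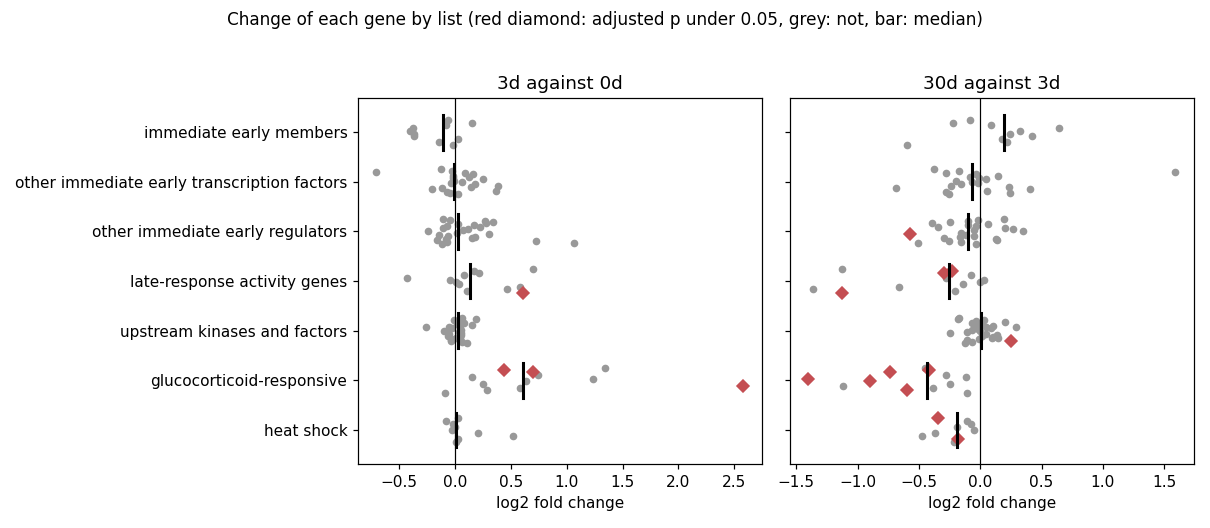
log2 fold change of every gene of the 7 lists at 3d against 0d and at 30d against 3d (horizontal axes, with different ranges), 1 point per gene, red diamonds for adjusted p under 0.05 and a bar at the list's median. The 10 immediate early genes hold no diamond in either panel, and their medians are -0.11 and 0.20.

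Some of the 10 genes, Dusp1 among them, also respond to glucocorticoids, and so a list of 12 other glucocorticoid-responsive genes was read beside them. At 3d against 0d, 3 of 12 were called, against 0.219% of all genes, all higher, with Tsc22d3 at 0.44, Sgk1 at 0.70 and Hif3a at 2.58 (edgeR adjusted p = 0.0133, 0.0152 and 0.0253). At 30d against 3d, 5 of 12 were called, against 0.935% of all genes, all lower, from Tsc22d3 (-0.42) to Mt2 (-1.40). Dusp1 had log2 fold changes of 0.03 and 0.18 in these comparisons and was not called in either. Of 9 heat shock genes, which respond to stress on cells, 0 were called at 3d against 0d and 2 were lower at 30d than at 3d, Hsph1 (-0.35) and Hsp90aa1 (-0.18). Leaving out either 3d library ended the call of each of these genes at 30d against 3d, and those of Scg2, Syt4, Gadd45g and Camk2b, although the log2 fold changes stayed between -0.28 and -0.31 for Scg2, -0.21 and -0.24 for Syt4 and -0.52 and -0.62 for Gadd45g, and Bdnf kept its call there with any 1 library left out. The calls of Bdnf, Tsc22d3, Sgk1 and Hif3a at 3d against 0d were also lost without either 3d library. With any 1 library left out, their log2 fold changes stayed between 0.53 and 0.68 for Bdnf and 0.43 and 0.45 for Tsc22d3. Those of Sgk1 stayed between 0.58 and 0.83 and those of Hif3a between 2.43 and 2.75.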

How the data were processed

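The authors used cutadapt for trimming, STAR for alignment to mm10 and featureCounts for counting, per the paper's methods, in versions 2.10, 2.7.5a and 2.0.1 per the submitters' processing notes. Per the file headers, read pairs were counted on UCSC genes, for each gene overlapped, with the default settings for strand (ignored) and multimapping reads (not counted). The deposited values are raw counts, and groups came from the sample labels. No exon of the 10 genes overlaps another gene.

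In R 4.3.3, 17328 genes passed edgeR 4.0.16 filterByExpr, were scaled by TMM and were fitted over 8 libraries by quasi-likelihood with robust estimation. P-values were Benjamini-Hochberg adjusted over all genes, and log2 CPM used a prior count of 2. Permutation of 2 against 2 libraries cannot reach 0.05, so all p-values are from models. They set a difference between time points against the spread between pools, which is estimated over the fitted libraries with information shared across genes. Alternatives were other normalizations, filters, thresholds and samples, DESeq2 1.42.0, limma-voom (limma 3.58.1), the replicate number as a block and each library left out. The fits were tested on simulated data.

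All 10 genes were named in every comparison. From other lists, genes past the threshold (at most 5) were named, otherwise the gene with the smallest p, and values of further genes were chosen after being seen. Genes and lists were chosen with earlier results of these data known. Promoters are from RefSeq (GRCm38.p6).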

Additional observations from a re-analysis of the deposited data

Results flagged for a closer look

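None of the 10 immediate early genes passed the edgeR test between time points after the injection. The following genes of the other lists passed it, as a test of the difference between the later time points (3d and 1d, 30d and 3d, or 30d and 1d), which is also the test that their changes from the shared 0d libraries differ. At 30d against 3d, the log2 fold changes were -1.13 for Bdnf, -0.30 for Scg2 and -0.23 for Syt4 among late-response genes. They were -0.60 for Ddit4, -0.74 for Sgk1, -0.42 for Tsc22d3, -0.90 for Mt1 and -1.40 for Mt2 among glucocorticoid-responsive genes. They were -0.35 for Hsph1 and -0.18 for Hsp90aa1 among heat shock genes, -0.57 for Gadd45g and 0.25 for Camk2b. At 30d against 1d, the value was -0.84 for Bdnf. At 3d against 1d, it was 0.62 for Sgk1 and 0.65 for Hspa1b. Hspa1b has a near-identical copy, Hspa1a, and reads that map to both were not counted, so its level is uncertain. Of 8 libraries left out in turn, 4 ended the call of Hspa1b, 3 that of Sgk1 at 3d against 1d and 5 that of Mt2. All of these had an adjusted p under 0.05, from 0.000157 for Bdnf at 30d against 3d to 0.0385 for Mt2 and Hsp90aa1.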

How the results depend on the processing

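In each of the 6 comparisons and in the any-time test, 0 of the 10 immediate early genes passed under 10 other settings. These settings included DESeq2 and limma-voom. The any-time test had 9 of them, as it has no fit of compared groups alone. Thresholds of 0.01 and 0.10 with edgeR also gave 0, which makes 83 counts in all. With 1 library left out, the count ranged from 0 to 2 at 30d against 3d and from 0 to 1 at 30d against 1d, both changes without 30d replicate 1, and it was 0 elsewhere. Of 720 single-gene log2 fold changes outside the fits that left out 1 library, 4 changed sign, each near 0 and not called. Of 480 with 1 library left out, 42 changed sign and 3 gained a call. Of 228 values for called genes of other lists, 26 lost the call, 13 of them only because the threshold was 0.01, and 52 of 152 did so with 1 library left out. The calls lost most often were Mt2 at 30d against 3d (4 of 10 other settings, 5 of 8 libraries), Hif3a at 3d against 0d (1 and 6), Hspa1b at 3d against 1d (2 and 4) and Hsp90aa1 at 30d against 3d (3 and 3), while Bdnf kept its call at 30d against 3d and against 1d throughout. With the replicate number as a block, 0 of the 10 immediate early genes passed in every comparison, with a smallest adjusted p of 0.0726. Deviations of same-numbered libraries correlated at -0.01 to 0.04 over all tested genes. The sample labels do not say what the replicate numbers stand for, and a shared batch in few genes was not tested. Depth limits Fosb most (52 to 147 counts), and the spread between 2 pools limits all 10 genes.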

Other observations

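Vgf, a late-response gene that was not called, was at 138 and 164 CPM at 0d, 197 and 204 CPM at 1d, 243 and 248 CPM at 3d, and 128 and 96.9 CPM at 30d. Its levels did not overlap between any of the 4 time points. In each single comparison 31.9% to 46.4% of all genes did not overlap, and the share apart in all comparisons was not counted. The log2 fold change of Vgf at 30d against 3d was -1.12 ± 0.16 (SE, edgeR adjusted p = 0.0778). It was named after its values had been seen.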
